A study of Mus musculus and Rattus norvegicus with 12 samples.

Results

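Chemokines and chemokine receptors were read from RNA sequencing of mouse hearts and of cultured rat heart cells after targeting of Jmjd4, which codes for a JmjC-domain oxygenase. They were chosen by symbol alone, as every gene named Ccl, Cxcl, Ccr, Cxcr or Ackr followed by its number, with a last letter allowed for Ccl. The rule gave 59 symbols of 66930 in the series, 56 of 54087 in the mouse table and 50 of 28909 in the rat table, with 47 in both. The mouse table alone held Ackr1, Ccl8, Ccl21a, Ccl21b, Ccl27a, Ccl27b, Ccr2, Cxcl5 and Cxcl15, and the rat table alone Ccl21, Ccl27 and Cxcl6.

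The cKO mice (n = 3) carried MCM, a tamoxifen-inducible Cre driven by the cardiomyocyte promoter Myh6, on floxed Jmjd4 alleles (Jmjd4f/f). The flox mice (n = 3) carried the floxed alleles without Cre, so that Cre and loss of the gene cannot be told apart here. All mice were given tamoxifen, and the heart apex was taken at day 14. Neonatal rat ventricular cardiomyocytes (NRVCs) were cultures from hearts of 1-day-old Sprague-Dawley rats and were given siRNA to Jmjd4 (siJmjd4, n = 3) or a control siRNA (siNC, n = 3) for 48 h. The sources used here do not give the age of the mice or say that NRVC replicates were separate isolations, so p-values measure the spread between these samples, which may be technical.

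Chemokines are small secreted proteins that steer leukocytes along gradients, and their receptors couple to inhibitory G proteins. CC and CXC chemokines are named for the spacing of their first cysteines, and 1 ligand often binds several receptors. Atypical receptors (Ackr) bind chemokines without G protein signalling and remove or transport them. In the heart, Ccl2 and its receptor Ccr2 are known for recruiting monocytes, Cxcl9 and Cxcl10 for drawing T cells and NK cells through Cxcr3, and Cxcl12 with Cxcr4 for homing of progenitors and leukocytes and for vessel growth.

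Depth ranged from 57174654 to 82187009 counts per library. Flox replicate 3 stood apart, with 41.7% of its counts on mitochondrial genes, against 14.2% to 24.1% in the other 5 heart libraries, and no count for 1485 tested genes, against 125 to 503 such genes, the 503 in cKO replicate 2. These 2 libraries also leaned to short transcripts: the rank correlation across genes between transcript length and a library's deviation from the others of its group came to -0.55 for cKO replicate 2 and -0.62 for flox replicate 3, against 0.30 to 0.58 for the other 4. Such deviations balance out within a group, so the positive values alone show no lean to long transcripts. Among NRVC libraries, 461 tested genes lacked a count in siNC replicate 3, against 78 to 137 genes elsewhere. There the rank correlation was -0.48 for siNC replicate 3 and -0.37 for siJmjd4 replicate 1, against 0.04 to 0.47 for the others. Jmjd4 itself had 8.95, 4.92 and 9.63 CPM (counts per 1000000 of the TMM-scaled library) in cKO hearts, against 19.0, 8.04 and 16.9 CPM in flox hearts, with overlap and an edgeR adjusted p of 0.397. In NRVCs it had 3.58, 3.43 and 3.52 CPM in the libraries labelled siJmjd4, against 3.46, 4.40 and 0.982 CPM in siNC libraries, an edgeR adjusted p of 0.770. All directions therefore rest on the labels. Adjusted p-values here and below come from edgeR's two-sided quasi-likelihood test with Benjamini-Hochberg adjustment over all genes tested, and a gene was called at an adjusted p under 0.05.

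In hearts, 3 of the 56 members were called, all higher in cKO hearts. They were Cxcl10, a ligand induced by interferon, Cxcr6, the receptor of Cxcl16 on T cells and NKT cells, and Ccr2, the receptor that brings monocytes out of the bone marrow. No member was called lower. Of the 56 members, 5 had no count in any library, 9 had too few counts to test and 42 were tested, so that 7.14% of the tested members were called higher, against 0.37% of all 18094 genes tested, and 0 lower, against 0.138%. At an unadjusted p under 0.05 in edgeR, 15 of the 42 passed, a larger share than in all genes (2715 of 18094, 15%). In 16 of the 42 every cKO heart was above every flox heart (38.1%, against 14.9% of all genes) and in 5 every cKO heart was below (11.9%, against 11.2%). The median log2 fold change of the tested members was 0.79, against 0.00 over all genes. Members enter the test when they have enough counts in 3 libraries, so these shares describe the tested members and not all 56. Ackr1, with no count in any flox heart, could therefore only lie above. Without flox replicate 3, 12 members were called higher, the 3 among them (28.6%, against 4.26% of all genes tested), and 0 lower (against 2.93%). Without any single one of the other 5 libraries no member was called, nor was any other gene.

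**Figure D1:**
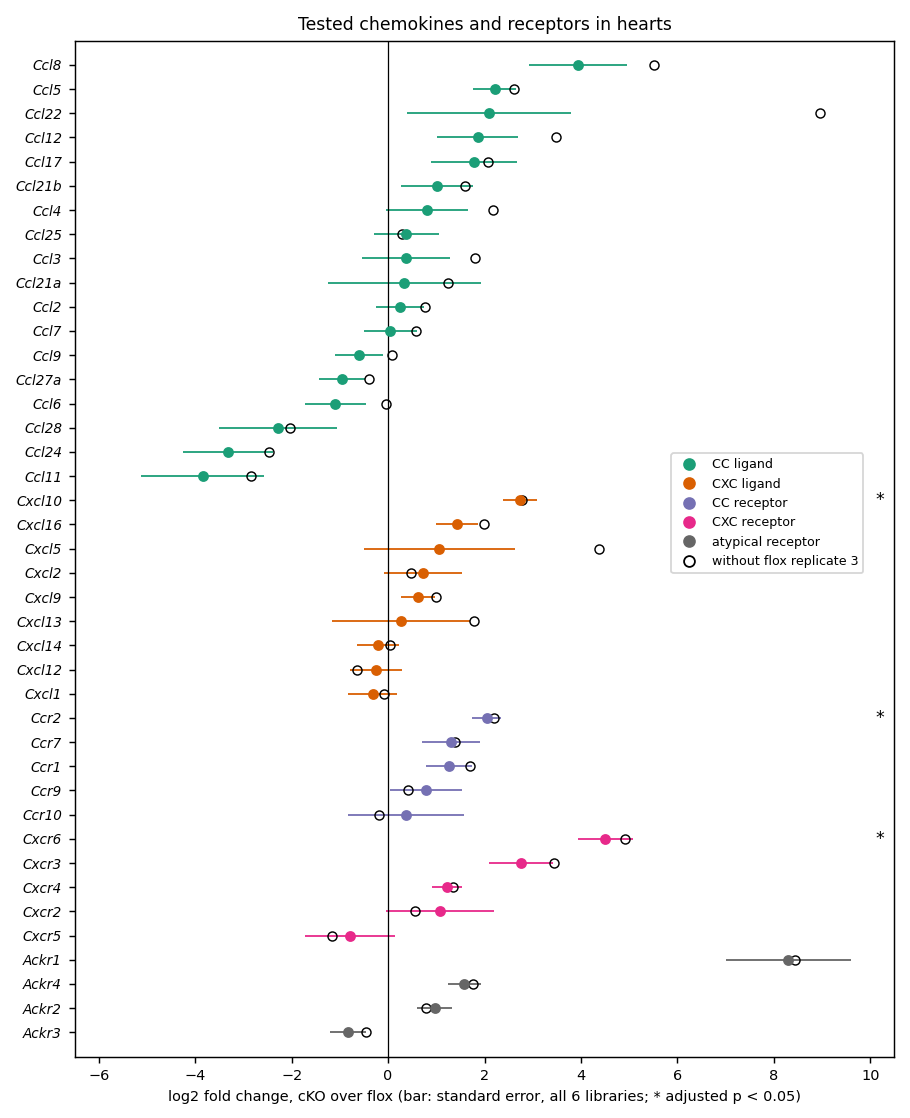
Log2 fold change of 41 of the 42 tested members, cKO over flox hearts, with its standard error, in the fit of all 6 libraries (filled, coloured by role, asterisk where called) and without flox replicate 3 (open). Positive values mean higher in cKO hearts, and 30 of the 41 are positive with all libraries. Ackr1 has no count in any flox library, and Ccl22 none in flox libraries other than replicate 3. Both values of Ackr1 and the open value of Ccl22 therefore depend on the prior count and are no bounds.

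Cxcl10 and Cxcr6 were called in cKO hearts. Cxcl9, the neighbour of Cxcl10, and Cxcl1, a neutrophil ligand, were not called. Ccl12 was called without flox replicate 3 but not with it. The upstream sequence of these 5 members is shown as an example. Each is the 250 bases before the RefSeq gene start on GRCm38.p6, read 5′ to 3′ on the gene's strand, from chr5:92348890-92349139 (minus strand, Cxcl10), chr5:92328080-92328329 (minus, Cxcl9), chr5:90890995-90891244 (plus, Cxcl1), chr9:123806227-123806476 (plus, Cxcr6) and chr11:82101595-82101844 (plus, Ccl12). Capitals mark matches on either strand to the interferon response element (ISRE, searched as GAAANNGAAA) and to the NF-kappaB motif (GGGNNNTTCC).
Cxcl10: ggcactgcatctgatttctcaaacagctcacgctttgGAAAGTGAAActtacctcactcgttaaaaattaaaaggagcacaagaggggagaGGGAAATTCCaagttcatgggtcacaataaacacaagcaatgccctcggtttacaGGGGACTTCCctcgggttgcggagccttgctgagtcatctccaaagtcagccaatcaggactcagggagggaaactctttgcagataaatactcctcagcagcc
Cxcl9: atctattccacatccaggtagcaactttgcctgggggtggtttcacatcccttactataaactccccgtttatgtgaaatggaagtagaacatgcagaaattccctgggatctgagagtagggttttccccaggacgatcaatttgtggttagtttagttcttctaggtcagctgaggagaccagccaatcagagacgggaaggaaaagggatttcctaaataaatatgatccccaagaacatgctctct
Cxcl1: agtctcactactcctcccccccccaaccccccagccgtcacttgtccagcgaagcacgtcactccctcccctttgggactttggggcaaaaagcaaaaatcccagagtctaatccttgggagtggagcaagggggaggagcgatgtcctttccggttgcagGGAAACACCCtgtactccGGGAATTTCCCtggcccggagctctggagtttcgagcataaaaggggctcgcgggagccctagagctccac
Cxcr6: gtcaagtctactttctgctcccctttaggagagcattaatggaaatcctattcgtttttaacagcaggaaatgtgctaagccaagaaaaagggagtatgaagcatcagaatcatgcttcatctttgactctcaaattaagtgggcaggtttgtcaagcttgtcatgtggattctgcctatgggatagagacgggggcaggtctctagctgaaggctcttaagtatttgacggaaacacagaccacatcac
Ccl12: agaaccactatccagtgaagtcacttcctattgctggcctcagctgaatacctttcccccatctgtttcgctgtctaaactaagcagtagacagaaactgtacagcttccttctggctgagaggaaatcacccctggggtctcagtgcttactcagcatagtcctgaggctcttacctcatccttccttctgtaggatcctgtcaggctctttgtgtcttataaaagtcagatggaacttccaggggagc

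The window of Cxcl10 held 1 ISRE match, 204 to 213 bases before the start, and 2 NF-kappaB matches between 95 and 159 bases before it. The window of Cxcl1 held 3 NF-kappaB matches between 61 and 89 bases before the start, and those in its second capital run overlap each other on opposite strands. Cxcl2 and Cxcl3, its neighbours in the cluster of neutrophil ligands, also had 3 each. The windows of Cxcl9, Cxcr6 and Ccl12 had neither motif as spelled here. RefSeq windows were found for 41 of the 56 mouse members, 48 windows in all, of which 3 held the ISRE and 9 the NF-kappaB motif. Among 32851 windows of all genes, 2.98% held the ISRE and 4.65% the NF-kappaB motif. The TATA box sequence (TATAAA), searched on either strand at any place in the window, was in 12 of the 48 and in 12.4% of all. Its matches in members lay from 3 bases before the start, in Ackr3, to 224 bases before it, in Ccl9. A match therefore need not be a TATA box in use.

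Among CXC ligands of Cxcr3, Cxcl10 had 3.56, 4.25 and 4.33 CPM in cKO hearts, against 0.636, 0.545 and 0.649 CPM in flox hearts. The replicates of each genotype lay close together and the genotypes were far apart. Its means were 4.04 ± 0.423 CPM in cKO and 0.610 ± 0.0569 CPM in flox hearts (SD, n = 3 each), a 6.62-fold rise (log2 2.73, SE 0.35, edgeR adjusted p = 0.0387). The gene lies on chromosome 5 at 92346638 to 92348889 (GRCm38, minus strand), within Art3 on the other strand, and 133 of its exon bases are also exon of Art3. Art3 had 36.7, 64.0 and 46.6 CPM in cKO hearts, against 148, 104 and 386 CPM in flox hearts (log2 -2.11, edgeR adjusted p = 0.157). Every cKO heart was thus below every flox heart for Art3 and above for Cxcl10. Cxcl9 had 8.35, 7.59 and 8.11 CPM in cKO hearts, against 4.55, 3.52 and 7.59 CPM in flox hearts. The highest flox value, in replicate 3, was level with the lowest cKO value, and the gene was not called (log2 0.62, edgeR adjusted p = 0.485, and 0.99 with edgeR adjusted p = 0.0525 without flox replicate 3). Cxcl11, the third ligand, was near the limit of detection, with 0.220, 0.102 and 0.0894 CPM in cKO hearts and 0.0509, 0 and 0 CPM in flox hearts, and was not tested. Their receptor Cxcr3, which marks activated T cells and NK cells, had 1.57, 1.53 and 2.17 CPM in cKO hearts, against 0.216, 0.104 and 0.480 CPM in flox hearts. The groups did not overlap, and it was called without flox replicate 3 (log2 3.44, edgeR adjusted p = 0.0168) but not with it (2.76, edgeR adjusted p = 0.120).

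**Figure D2:**
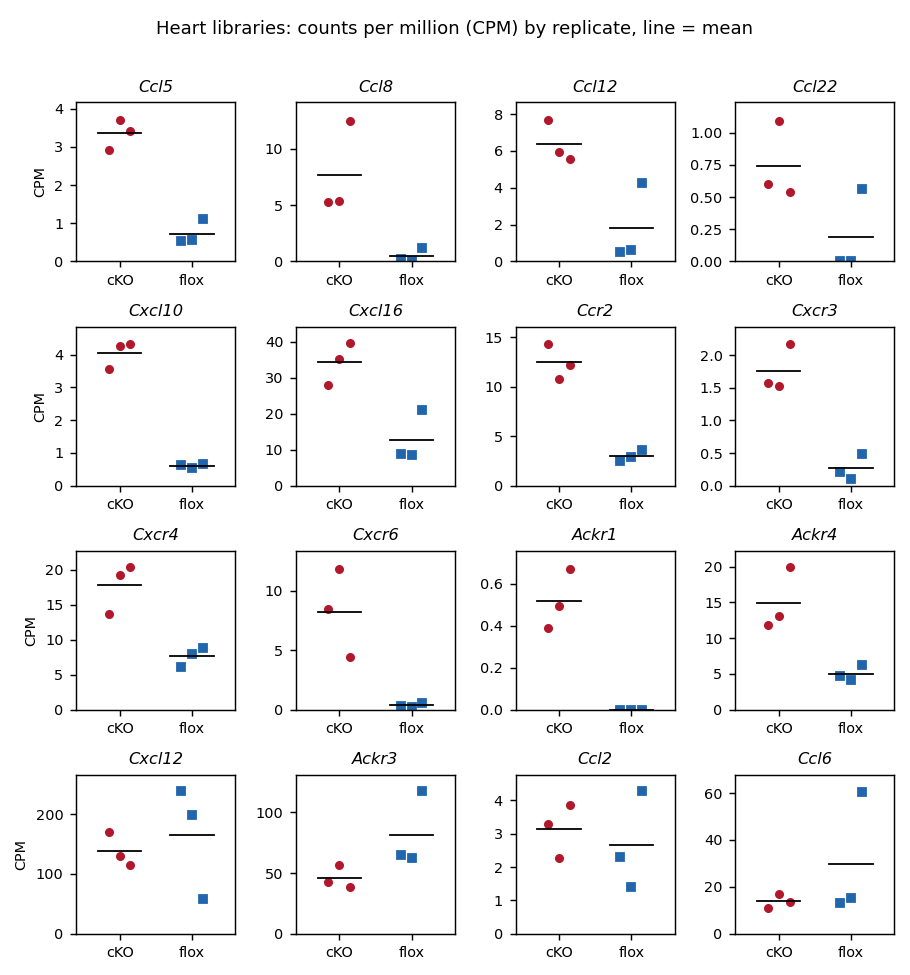
CPM of 16 members in each heart, cKO left and flox right, with the line at the mean of 3 libraries; each panel has its own axis from 0. Cxcl10, Cxcr6 and Ccr2 have cKO hearts above flox hearts with a wide gap, and in Ccl12 and Cxcl16 flox replicate 3 lies nearer to the cKO hearts than the other flox hearts do.

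Cxcl16, a membrane-bound ligand of macrophages and dendritic cells found both bound to the membrane and shed from it, had 28.1, 35.3 and 39.6 CPM in cKO hearts, against 8.80, 8.46 and 21.1 CPM in flox hearts. No flox heart reached a cKO heart, but flox replicate 3 was well above the other flox hearts. Its log2 fold change was 1.43 (SE 0.44, edgeR adjusted p = 0.201), and 1.99 without flox replicate 3 (edgeR adjusted p = 0.00820). Zmynd15, on the other strand, shares 552 exon bases with it and was itself not called (log2 1.89, edgeR adjusted p = 0.249). Cxcr6, the receptor of Cxcl16, had 8.47, 11.9 and 4.46 CPM in cKO hearts, against 0.318, 0.234 and 0.565 CPM in flox hearts. The cKO hearts varied more than 2-fold among themselves, and the lowest of them was still far above the highest flox heart. Its means were 8.27 ± 3.71 CPM in cKO and 0.372 ± 0.172 CPM in flox hearts (SD, n = 3 each), a 22.7-fold rise (log2 4.50, SE 0.57, edgeR adjusted p = 0.0387). It lies on chromosome 9 at 123806475 to 123811760 (plus strand), inside the body of Fyco1 on the other strand and with no shared exon base. Fyco1 had 242, 83.6 and 186 CPM in cKO hearts and 396, 444 and 57.8 CPM in flox hearts (log2 -0.81, edgeR adjusted p = 0.699), with the lowest value in flox replicate 3.

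Cxcl12, the homeostatic ligand made by stromal and endothelial cells, was the member with the highest level, at 170, 130 and 114 CPM in cKO hearts and 238, 198 and 58.4 CPM in flox hearts. The flox hearts bracketed the cKO hearts with replicate 3 the lowest of all 6 (log2 -0.25, edgeR adjusted p = 0.887). The 8 blood endothelial markers summed to 847 to 1095 CPM in cKO hearts and 453 to 1203 CPM in flox hearts, and the lowest of these sums was also that of flox replicate 3. Flox replicate 3 also leaned to short transcripts, and the longest transcript of Cxcl12 has 5627 bases. The part of endothelial cells or of transcript length in the Cxcl12 values was not tested. Its signalling receptor Cxcr4 had 13.7, 19.3 and 20.4 CPM in cKO hearts, against 6.12, 7.98 and 8.87 CPM in flox hearts. The groups did not overlap (log2 1.22, SE 0.31, edgeR adjusted p = 0.131, and 1.34 with edgeR adjusted p = 0.0301 without flox replicate 3). Its scavenger Ackr3 had 42.5, 56.9 and 38.5 CPM in cKO hearts, against 64.5, 62.3 and 118 CPM in flox hearts, below every flox heart but not called (log2 -0.83, edgeR adjusted p = 0.365). So the receptor had a positive and the scavenger a negative fold change, and Ackr3 was called lower when flox replicate 3 and cKO replicate 2 were both left out.

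The neutrophil ligands that bind Cxcr2 were low and none of those tested was called. Cxcl1 had 0.829, 1.23 and 0.984 CPM in cKO hearts and 1.49, 0.662 and 1.67 CPM in flox hearts. Cxcl2 had 0.273, 0.788 and 0.190 CPM in cKO hearts and 0.382, 0.221 and 0.141 CPM in flox hearts. Cxcl5 had 0.567, 0.966 and 0.145 CPM in cKO hearts and 0, 0.0519 and 0.791 CPM in flox hearts. Genotypes overlapped in these 3, as they did for the receptor Cxcr2, at 0.399, 0.305 and 0.279 CPM in cKO hearts and 0.331, 0.117 and 0 CPM in flox hearts. Cxcl3, with too few counts to test, had 5, 9 and 4 counts in cKO hearts, against 0 in every flox heart. Cxcl14, a ligand of epithelia and fibroblasts, had 3.96, 8.90 and 4.16 CPM in cKO hearts and 6.25, 4.83 and 8.70 CPM in flox hearts. Cxcl13, which places B cells in follicles, had 0.336, 0.0636 and 0.134 CPM in cKO hearts and 0.102, 0 and 0.367 CPM in flox hearts. Its receptor Cxcr5 had 0.0734, 0.318 and 0.134 CPM in cKO hearts and 0.216, 0.571 and 0.113 CPM in flox hearts, also with overlap.

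The monocyte ligands Ccl2, Ccl7 and Ccl12 and their neighbour Ccl8 sit together on chromosome 11. With all libraries their fold changes were positive, and none was called. Ccl12, the mouse relative of Ccl2, had 7.67, 5.92 and 5.58 CPM in cKO hearts, against 0.496, 0.649 and 4.23 CPM in flox hearts. Flox replicate 3 was several times above the other flox hearts and just below the lowest cKO heart. The gene was not called with all libraries (log2 1.86, edgeR adjusted p = 0.361) and was called without flox replicate 3 (3.48, edgeR adjusted p = 0.00527). Ccl8, a ligand of tissue macrophages, had 5.26, 5.34 and 12.5 CPM in cKO hearts, against 0.254, 0.0778 and 1.24 CPM in flox hearts. The groups were far apart, and flox replicate 3 was again the highest flox heart (log2 3.94, SE 1.01, edgeR adjusted p = 0.139, and 5.52 with edgeR adjusted p = 0.0105 without flox replicate 3). Ccl2 had 3.31, 2.28 and 3.86 CPM in cKO hearts and 2.30, 1.39 and 4.29 CPM in flox hearts, and Ccl7 had 2.93, 1.50 and 1.97 CPM in cKO hearts and 1.93, 0.947 and 3.36 CPM in flox hearts. Neither was called, with log2 fold changes of 0.25 and 0.04, and in both the highest value of all was flox replicate 3. Under alternative settings these fold changes went down to -0.06 for Ccl2 and -0.30 for Ccl7. Ccr2, the receptor of Ccl2, Ccl7 and Ccl12, had 14.3, 10.8 and 12.2 CPM in cKO hearts, against 2.51, 2.92 and 3.64 CPM in flox hearts. All 3 cKO hearts lay together at several times the flox level. Its means were 12.4 ± 1.80 CPM in cKO and 3.02 ± 0.575 CPM in flox hearts (SD, n = 3 each), a 4.12-fold rise (log2 2.04, SE 0.30, edgeR adjusted p = 0.0493). It lies on chromosome 9 at 124101950 to 124113557 (plus strand). Its adjusted p was close to the threshold, and it was not called with a correction for transcript length (log2 1.46, edgeR adjusted p = 0.168).

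The eotaxins, ligands that draw eosinophils through Ccr3, had negative fold changes at very low levels and are named here after their values were seen. Ccl11 had 0.136, 0 and 0.0447 CPM in cKO hearts, against 0.509, 0.402 and 1.84 CPM in flox hearts. Ccl24 had 0.283, 0.407 and 0.0447 CPM in cKO hearts, against 1.68, 1.04 and 4.69 CPM in flox hearts. The receptor Ccr3 had 0.0839, 0 and 0.224 CPM in cKO hearts and no count in flox hearts, too few to test. Every cKO heart was below every flox heart in both, neither was called by edgeR (log2 -3.85 with edgeR adjusted p = 0.233, and -3.32 with 0.169), and DESeq2's Wald test called both lower (DESeq2 adjusted p = 0.0129 and 0.00366). Of all 42 members that test called 9 higher and 2 lower, against 5.3% and 4.38% of all genes. Ccl11 is a neighbour of Ccl12 and Ccl8 in the cluster at 82035571 to 82305690 of chromosome 11, so fold changes within this cluster ran over 5 tested members of 6 from -3.85 to 3.94.

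Ccl5, made by T cells, NK cells and macrophages, had 2.93, 3.71 and 3.42 CPM in cKO hearts, against 0.534, 0.558 and 1.10 CPM in flox hearts. The groups were well separated (log2 2.21, SE 0.44, edgeR adjusted p = 0.0853, and 2.62 with edgeR adjusted p = 0.0105 without flox replicate 3). The related ligands Ccl3 and Ccl4 overlapped: Ccl3 had 0.672, 0.318 and 0.704 CPM in cKO hearts and 0.127, 0.195 and 1.02 CPM in flox hearts. Ccl4 had 1.08, 0.559 and 0.794 CPM in cKO hearts and 0.153, 0.208 and 1.07 CPM in flox hearts. In both, flox replicate 3 was near or above the top of the cKO hearts while the other flox hearts were below all of them. Ccr1, a receptor of Ccl3 and Ccl5, had 5.84, 4.70 and 6.44 CPM in cKO hearts, against 2.42, 1.09 and 3.61 CPM in flox hearts (log2 1.26, edgeR adjusted p = 0.282). The groups did not overlap.

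Ccl6 and Ccl9, ligands of macrophages found in rodents, were not called. Ccl6 had 11.0, 17.1 and 13.5 CPM in cKO hearts and 13.0, 15.4 and 60.6 CPM in flox hearts. Ccl9 had 7.70, 12.1 and 12.1 CPM in cKO hearts and 10.9, 9.33 and 28.5 CPM in flox hearts. Apart from flox replicate 3 the genotypes overlapped, with log2 fold changes of -1.09 and -0.61 that became -0.03 and 0.07 without it. Ccl22, a ligand of Ccr4 made by dendritic cells and macrophages, had 0.598, 1.09 and 0.536 CPM in cKO hearts and 0, 0 and 0.565 CPM in flox hearts. With flox replicate 3 it was not called (edgeR adjusted p = 0.640), and without it the gene was called, at least 19.3-fold higher in cKO hearts when a count of 0 is set to a floor of 3 counts per library (edgeR adjusted p = 0.0180). Ccl27a, known from skin, had 2.13, 3.92 and 3.05 CPM in cKO hearts, against 3.97, 4.06 and 9.63 CPM in flox hearts (log2 -0.95, edgeR adjusted p = 0.405).

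The ligands of Ccr7, which guide dendritic cells and T cells to lymph nodes, could not be resolved well. Ccl21a had 13.3, 14.6 and 0 CPM in cKO hearts and 2.80, 5.19 and 14.2 CPM in flox hearts (log2 0.34, edgeR adjusted p = 0.953). The 0 in cKO replicate 3 stood beside 0.905 CPM of Ccl21b, a near-identical gene, and 71.6% of the runs of 50 bases in Ccl21a transcripts also occur in Gm21541. Summed over Ccl21a, Ccl21b and their copy Gm10591, the level was 21.6, 20.6 and 4.20 CPM in cKO hearts and 4.21, 7.41 and 20.9 CPM in flox hearts, again with overlap. This sum does not include Gm21541 or Gm13304, which shares 70.5% of these runs. The low sum in cKO replicate 3 may therefore be incomplete. Ccl19 had 0.0630 CPM in cKO replicate 1 and no count in any other heart. Ccr7 had 0.577, 1.17 and 0.514 CPM in cKO hearts, against 0.305, 0.272 and 0.339 CPM in flox hearts (log2 1.30, edgeR adjusted p = 0.367).

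Of the atypical receptors, 3 of 4 had every cKO heart above every flox heart (against 14.9% of all genes). Ackr3, given above, had every cKO heart below (against 11.2%). Of the 3, Ackr1 could enter the test only through its counts in cKO hearts. Its order was fixed by that entry and adds nothing to the comparison with all genes. Ackr1, the Duffy receptor of venules and red cells, had 0.388, 0.496 and 0.671 CPM in cKO hearts and no count in any flox heart. It was at least 9.61-fold higher with the flox libraries at a floor of 3 counts each, but not called with all libraries (edgeR adjusted p = 0.0823, and 0.0239 without flox replicate 3). It shares 361 exon bases with Cadm3 on the same strand (log2 -0.07). The 7 platelet and red cell markers summed to 139 to 734 CPM in cKO hearts and 298 to 1402 CPM in flox hearts. Ackr4, which clears Ccl19 and Ccl21, had 11.9, 13.0 and 19.9 CPM in cKO hearts, against 4.66, 4.11 and 6.30 CPM in flox hearts (log2 1.57, SE 0.34, edgeR adjusted p = 0.101, and 1.77 with edgeR adjusted p = 0.0187 without flox replicate 3). It lies inside Acad11, which is on the other strand, shares 479 exon bases and had a log2 fold change of -0.90. Ackr2, a scavenger of inflammatory CC ligands, had 6.73, 4.26 and 7.48 CPM in cKO hearts, against 3.37, 3.75 and 2.29 CPM in flox hearts (log2 0.97, edgeR adjusted p = 0.279).

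By role, the 6 tested CC receptors all had positive fold changes (median log2 1.15), as did 4 of 5 CXC receptors (1.22) and 3 of 4 atypical receptors (1.27). Of the ligands, 12 of 18 CC (0.36) and 6 of 9 CXC (0.62) did. The positive sign of Ackr1, with no flox count, was fixed by its entry into the test. Without flox replicate 3 the medians by role lay closer together. They were 1.10 for CC, 1.34 for CXC and 1.28 for atypical receptors, and 1.00 for CC and 0.99 for CXC ligands. With all libraries 50% of all genes tested were positive. Of the other tested members, Ccl17, Ccl21b, Ccl25, Ccl28, Ccr9 and Ccr10 had log2 fold changes from -2.28 for Ccl28 to 1.78 for Ccl17, and none was called. Ccl20, Ccl26, Ccr8, Cxcl15 and Cxcr1 had no count in any heart. The members with too few counts to test were Ccl1, Ccl19, Ccl27b, Ccr3, Ccr4, Ccr6, Cxcl3, Cxcl11 and Cxcl17, none above 0.224 CPM in any heart. Over all alternatives the adjusted p of the called members ranged from 4.38e-12 to 0.334 for Cxcl10, from 7.79e-12 to 0.333 for Cxcr6 and from 3.14e-07 to 0.343 for Ccr2. Those of the 9 members added by leaving out flox replicate 3 went up to 0.385 for Ccl5 and Ackr4, 0.396 for Cxcr3, 0.431 for Ccl8, 0.439 for Cxcr4, 0.471 for Ackr1, 0.558 for Cxcl16, 0.718 for Ccl12 and 0.881 for Ccl22. Their lowest values lay between 3.10e-05 for Ackr1 and 0.00461 for Cxcr4. Scaling to total counts alone moved the median over all genes to 0.54 on the log2 scale and that over the tested members to 1.43, and turned the direction of none of these 12.

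Levels can be compared between genes only per length, here as CPM per kilobase of the longest GENCODE M21 transcript. On that scale the order in cKO hearts was Cxcl12 at 24.6, Ccl8 at 15.1, Ackr3 at 15.0, Cxcl16 at 12.7, Ccl12 at 11.9, Ccl21a at 10.7, Cxcr4 at 9.86 and Ccl6 at 9.64. In flox hearts it was Cxcl12 at 29.3, Ackr3 at 26.6, Ccl6 at 20.6, Ccl21a at 8.49, Ccl27a at 5.91, Ccl9 at 5.40, Cxcl16 at 4.74 and Cxcr4 at 4.24. Cxcl12 headed both orders. Ccl8 had a level of 1.03 per kilobase in flox hearts and stood at rank 18 there, and Cxcr6, at 4.34 in cKO hearts, had 0.195 and rank 31 in flox hearts. Neighbours in these orders such as Ccl8 and Ackr3 in cKO hearts differed by less than their spread between hearts.

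The other genes of the pathway were mostly positive too, and none was called with all libraries. Of 31 tested genes of receptor signalling, 29 had positive fold changes (median log2 0.95), against 50% of all genes. Without flox replicate 3, 8 were called higher and 1 lower, and in that fit 4.26% of all genes were called higher and 2.93% lower, which is also the background for the lists that follow. Among them Vav1, which activates Rac in leukocytes, had 8.13 ± 0.289 CPM in cKO and 2.99 ± 0.484 CPM in flox hearts (SD, n = 3 each, edgeR adjusted p = 0.0853, and 0.0212 without flox replicate 3). Rgs1 and Rgs2 both damp G protein signals: Rgs1 was at 1.30 ± 0.137 CPM in cKO and 0.227 ± 0.112 CPM in flox hearts, and Rgs2 at 8.78 ± 2.07 CPM in cKO and 44.2 ± 25.1 CPM in flox hearts (SD, n = 3 each). Of 26 tested inducers of chemokine transcription 25 were positive (median 0.77), with 4 called higher without flox replicate 3. Tlr2, a receptor for microbial lipoproteins, had 11.4 ± 1.51 CPM in cKO and 4.17 ± 0.172 CPM in flox hearts (SD, n = 3 each, edgeR adjusted p = 0.0779, and 0.0168 without flox replicate 3). The cytokine Il6 had 1.59 ± 0.738 CPM in cKO and 0.0212 ± 0.0367 CPM in flox hearts (SD, n = 3 each, edgeR adjusted p = 0.0879, and 0.0291 without flox replicate 3). Of 16 tested proteases that trim chemokines 14 were positive (median 0.59), with 4 called higher without flox replicate 3. Ctss, a lysosomal protease of macrophages, had 107 ± 23.2 CPM in cKO and 19.9 ± 6.13 CPM in flox hearts (SD, n = 3 each, edgeR adjusted p = 0.0508, and 0.00527 without flox replicate 3). Of 13 tested genes of the chemokine system outside the naming rule, 6 were positive (median -0.06, and 0.73 without flox replicate 3). Xcr1, Cd74 and Gpr35 were called higher without that library.

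Markers of several leukocytes had higher sums in cKO hearts beside these genes. The 10 T cell markers all had positive fold changes (median log2 2.04) and summed to 23.4 to 31.2 CPM in cKO hearts, against 12 to 19.5 CPM in flox hearts. Thy1 alone made up most of these T cell sums, with a smaller fold change (log2 0.33). It had 15.8 ± 4.56 CPM in cKO and 12.6 ± 3.57 CPM in flox hearts (SD, n = 3 each). Of the 14 macrophage and monocyte markers 11 were positive (median 0.82), with sums of 796 to 1098 CPM in cKO hearts, against 418 to 753 CPM in flox hearts, the highest flox value being that of replicate 3. Timd4, a marker of resident macrophages, was among the negative ones, at 0.609 ± 0.178 CPM in cKO and 2.97 ± 0.129 CPM in flox hearts (SD, n = 3 each, edgeR adjusted p = 0.0724). The 6 NK cell markers summed to 2.58 to 4.42 CPM in cKO and 0.895 to 1.59 CPM in flox hearts. The 7 neutrophil markers measured summed to 8.19 to 10.1 CPM in cKO and 4.36 to 4.94 CPM in flox hearts, with 3 of them at 0 in all flox hearts. Csf3r alone made up most of the sums in cKO hearts, at 6.53 ± 1.44 CPM, and had 2.09 ± 1.32 CPM in flox hearts. S100a8 had 0.733 ± 0.280 CPM in cKO and 1.07 ± 0.833 CPM in flox hearts. S100a9 had 1.46 ± 0.493 CPM in cKO and 1.43 ± 0.584 CPM in flox hearts (SD, n = 3 each for these 3 genes). The 7 B cell markers overlapped, at 10.6 to 14.8 CPM in cKO and 13.7 to 22.1 CPM in flox hearts. Sums of the 7 dendritic cell markers overlapped too, at 27.2 to 30.4 CPM in cKO and 18.5 to 37.7 CPM in flox hearts. Of these markers 5 had positive fold changes (median log2 1.63). Mast cell markers, 6 in all, also overlapped, at 6.75 to 11.6 CPM in cKO and 7.34 to 10.5 CPM in flox hearts. All 8 fibroblast markers were positive, with sums of 2872 to 7447 CPM in cKO and 796 to 1225 CPM in flox hearts, and the 8 cardiomyocyte markers summed to 26688 to 31819 CPM in cKO and 36532 to 46042 CPM in flox hearts. No defining T cell or macrophage marker was at 0 in all hearts, none of these markers was called with all libraries, and their part in the chemokine values was not tested. In bulk samples, more cells of a type and more RNA per cell cannot be told apart.

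In NRVCs no member was called. Of the 50 members 10 had no count, 10 had too few to test and 30 were tested. edgeR called 0 of the 30 (against 0.00645% of all 15497 genes higher and 0 lower), and DESeq2 also called 0 (against 1.09%). At an unadjusted p under 0.05, 1 passed, Ccl21, against 8.71% of all genes. Fold changes were positive in 14 and negative in 16, with a median of -0.04 on the log2 scale, against 0.01 over all genes. No tested member had every siJmjd4 library above every siNC library (against 22.4% of all genes), and 3 of the 30 had every one below (10%, against 17.8%). Leaving out siNC replicate 3 gave no call of a member either, against 0.57% of all genes.

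**Figure D3:**
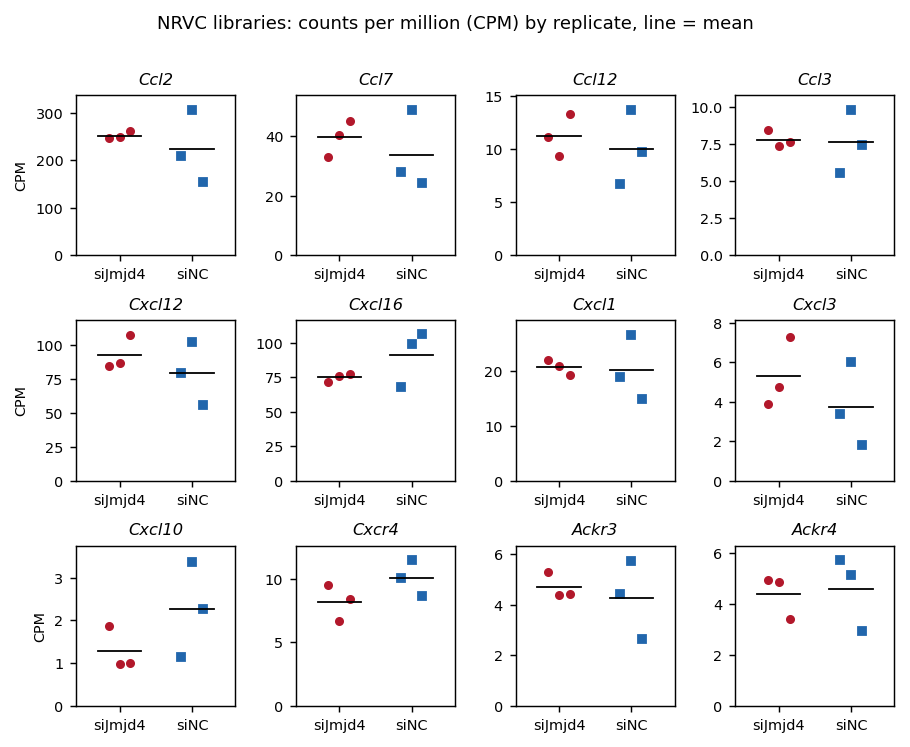
CPM of 12 members in each NRVC library, siJmjd4 left and siNC right, with the line at the mean of 3 libraries; each panel has its own axis from 0. The libraries overlap in every panel, and the siNC libraries spread more widely than the siJmjd4 libraries in Ccl2, Cxcl16 and Cxcl1.

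The ligands of monocytes and neutrophils were counted in all these cultures, and none was called. Ccl2 had 247, 248 and 262 CPM in siJmjd4 libraries and 209, 306 and 155 CPM in siNC libraries. Its means were 252 ± 8.49 CPM in siJmjd4 and 224 ± 76.6 CPM in siNC libraries (SD, n = 3 each, log2 0.17, SE 0.26, edgeR adjusted p = 0.671). Ccl7 had 33.2, 40.4 and 45.2 CPM in siJmjd4 and 28.1, 48.8 and 24.1 CPM in siNC libraries, and in both genes the siNC libraries bracketed all siJmjd4 libraries. Ccl12 had 11.1, 9.42 and 13.4 CPM in siJmjd4 and 6.74, 13.7 and 9.76 CPM in siNC libraries. Ccl3 had 8.46, 7.35 and 7.62 CPM in siJmjd4 and 5.57, 9.83 and 7.46 CPM in siNC libraries. These CC ligands had log2 fold changes between 0.04 and 0.23.

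Of the CXC ligands, Cxcl12 had 84.3, 86.2 and 107 CPM in siJmjd4 and 79.1, 102 and 55.3 CPM in siNC libraries (log2 0.23, SE 0.25). Cxcl16 had 71.2, 75.4 and 77.5 CPM in siJmjd4 and 67.9, 98.9 and 106 CPM in siNC libraries (log2 -0.28, SE 0.20). Both were among the highest members in CPM, and the siRNAs overlapped in each. Cxcl1 had 22.1, 20.9 and 19.3 CPM in siJmjd4 and 19.0, 26.7 and 15.0 CPM in siNC libraries, with means almost equal (log2 0.04). Cxcl3 had 3.91, 4.77 and 7.29 CPM in siJmjd4 and 3.36, 6.00 and 1.79 CPM in siNC libraries (log2 0.51, edgeR adjusted p = 0.511). Cxcl10 had 1.87, 0.988 and 1.00 CPM in siJmjd4 and 1.14, 3.37 and 2.27 CPM in siNC libraries, again with overlap (log2 -0.81, edgeR adjusted p = 0.386).

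Receptors were few. Cxcr4 had 9.55, 6.68 and 8.40 CPM in siJmjd4 and 10.1, 11.5 and 8.65 CPM in siNC libraries, a log2 fold change of -0.30 (SE 0.23) with overlap. Ackr3 had 5.29, 4.37 and 4.43 CPM in siJmjd4 and 4.42, 5.74 and 2.66 CPM in siNC libraries. Ackr4 had 4.95, 4.86 and 3.40 CPM in siJmjd4 and 5.71, 5.12 and 2.93 CPM in siNC libraries. Cxcr3 had no count in any library, Cxcr6 was counted in siJmjd4 replicate 3 alone at 0.0697 CPM, and Ccr2 was not analysed here in the rat. The 3 tested members lower without overlap were Ccl21, Ccl27 and Cxcl17, all at low levels and named after their values were seen. Ccl21 had 0.162, 0.0797 and 0 CPM in siJmjd4 libraries, against 0.469, 0.494 and 0.906 CPM in siNC libraries (log2 -2.89, SE 1.04, edgeR adjusted p = 0.379). Of the remaining tested members, Cxcl17 had a log2 fold change of -1.64 and Cxcr5 of 0.66, and none was called. No count in any NRVC library was found for Ccl1, Ccl24, Ccl25, Ccl26, Ccl28, Ccr3, Ccr6, Ccr8, Cxcr2 and Cxcr3, and the members too low to test reached at most 0.774 CPM, for Ccl17 in siNC replicate 3.

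The cultures are labelled as cardiomyocytes. Their 8 cardiomyocyte markers summed to 10463 to 12257 CPM in siJmjd4 and 12278 to 18734 CPM in siNC libraries, while the 8 fibroblast markers summed to 42810 to 49467 CPM in siJmjd4 and 36166 to 44111 CPM in siNC libraries. The 10 macrophage and monocyte markers measured summed to 353 to 394 CPM in siJmjd4 and 356 to 435 CPM in siNC libraries. Which of these cells carried the chemokine RNA was not tested. No gene was called in any of the pathway lists, with 29 genes of receptor signalling (median log2 0.18), 25 inducers (0.24), 13 proteases (0.16) and 8 genes outside the naming rule (-0.58) tested.

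The difference between the heart and NRVC responses was itself tested, with edgeR on all 12 libraries together and genes paired by symbol. Of 40 members in the model, 2 were called, Cxcl10 and Ccl5, against 1.68% of 13482 symbols called in either direction. An unadjusted p under 0.05 was found for 7 members, against 15.7% of symbols. Ccl20, Ccl24, Ccl25, Ccl28, Cxcr2 and Cxcr3 had no count in any library of 1 system, with SEs from 911 to 9129. The model could give no result for them, though they count among the 40. For Cxcl10 the log2 fold change was 2.73 in hearts and -0.81 in NRVCs, a difference of 3.53 (SE 0.64, edgeR adjusted p = 0.0199). For Ccl5 the difference was 5.21 (edgeR adjusted p = 0.0475), but the rat gene was too low to be tested by itself, with 0, 0 and 0.0557 CPM in siJmjd4 and 0.134, 0.123 and 0.227 CPM in siNC libraries. Every siJmjd4 library was below every siNC library for Ccl5, and its heart log2 fold change of 2.21 is the smaller part of the difference. Symbols pair chemokines of the species by name, and age, cell mixture and the way Jmjd4 was targeted differed between the systems as well, so these cannot be told apart. Without flox replicate 3 and siNC replicate 3, 8 members were called, against 12.8% of all symbols: Ackr4, Ccl12, Ccl22, Ccl4, Ccl5, Cxcl10, Cxcl16 and Cxcr4. Each of the 8 was higher in cKO over flox hearts than in siJmjd4 over siNC cultures.

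**Figure D4:**
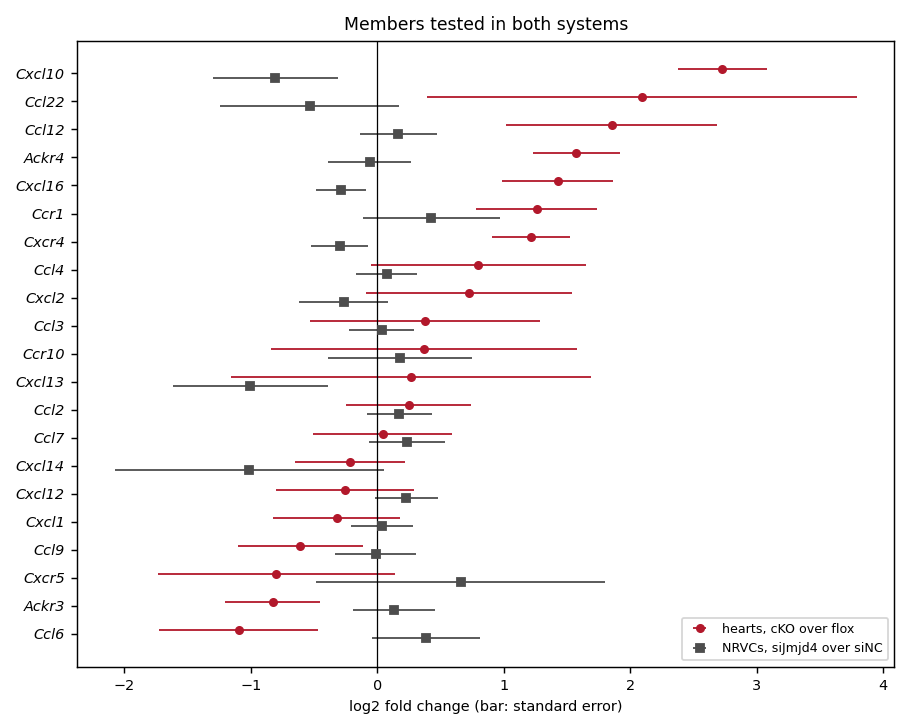
Log2 fold change of 21 members tested in both systems, 1 row per member ordered by the heart value, cKO over flox hearts in red and siJmjd4 over siNC NRVCs in grey, with standard errors. Cxcl10 lies at 2.73 in hearts and -0.81 in NRVCs, and the NRVC values of most members lie close to 0.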

How the data were processed

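RNA was sequenced from 6 mouse hearts and 6 NRVC cultures, after TRIzol extraction and standard Illumina library preparation, per the labels' protocols. The authors deposited 1 table of whole-number counts per gene symbol for each system, not normalized. The submitters' processing notes name HISAT2 2.1.0, StringTie 1.3.4, edgeR 3.20.9 and the builds mm10 and rn6 with no role. The sources used here give neither the annotation nor the rules or strand of counting, so reads of a gene and of one overlapping it on the other strand may not be told apart. Columns were matched to samples by name.

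Genes passing filterByExpr were tested with edgeR 4.0.16 (R 4.3.3, limma 3.58.1): TMM scaling, robust quasi-likelihood fit, group as the only term, all genes of a table together. Standard errors come from the F statistic. The smallest p of an exact permutation test of 3 against 3 is 0.1, and none was made. Counting floors of 3 counts cover counting error only. The difference between systems used 4 group means. Alternatives were DESeq2 1.42.0 size factors and Wald test, total counts, other filters, voom with quality weights, a replicate block, a transcript length offset (smooth of span 0.3) and leaving libraries out. Lengths and positions are from GENCODE M21 (GRCm38), promoters from RefSeq (GRCm38.p6). The code was tested on simulated counts. Replicate pairs were checked and none agreed within sampling noise.

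The members, gene lists and tests were chosen with earlier results of these data known. Values per sample are given for members called with all libraries or without the library standing apart, members with a mean of at least 5 CPM, and chosen ligand and receptor pairs, apart from 1 member, which like 1 of the 4 promoter motifs searched is not reported here.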

Additional observations from a re-analysis of the deposited data

Results flagged for a closer look

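For 2 members the response in hearts differed from that in NRVCs by a test of the difference itself in edgeR. For Cxcl10 cKO over flox minus siJmjd4 over siNC was 3.53 on the log2 scale (edgeR adjusted p = 0.0199), with all 3 cKO hearts above all flox hearts and overlap between siJmjd4 and siNC cultures. For Ccl5 it was 5.21 (edgeR adjusted p = 0.0475), with all 3 cKO hearts above all flox hearts and, in a rat gene too low to be tested by itself, 0, 0 and 4 counts in siJmjd4 against 8, 8 and 12 counts in siNC libraries. The heart log2 fold change was 2.21, so the larger part of the difference came from these low NRVC counts. Species, cell mixture and way of targeting differ along with the contrast and cannot be told apart.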

How the results depend on the processing

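In hearts the 3 called members became 1 with scaling to total counts alone, 2 with DESeq2 size factors, 11 with DESeq2's Wald test, 24 with limma voom with sample quality weights, 9 with the transcript length correction and 3 with either other filter. Over all 18094 genes tested, 92 were called, against 20 with total counts alone, 83 with size factors, 1748 with the Wald test, 3851 with voom and 1016 with the length correction, so the settings that called more members called more genes in all. Leaving out 1 library gave 0 to 12, with 12 without flox replicate 3, and leaving out flox replicate 3 and cKO replicate 2 gave 18. Fits without a library have fewer samples, and for the other settings the cause was not tested. In NRVCs the count of 0 became 1 with limma voom (Ccl21) and stayed 0 under the other alternatives, including each library left out. For the difference between systems the count of 2 became 1 with DESeq2 size factors and 8 without flox replicate 3 and siNC replicate 3.

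With the replicate number as a block, 0 members were called in hearts, 0 in NRVCs and 0 for the difference. Same-numbered libraries correlated in their deviations from the group means at 0.357, -0.479 and -0.331 in hearts and at -0.142, -0.0188 and -0.150 in NRVCs. The highest correlation in hearts, 0.552, was between cKO replicate 2 and flox replicate 3, which both leaned to short transcripts. Since deviations also carry such library differences, these correlations cannot decide whether the numbers pair the samples. The length correction had lengths for 80.0% of the genes tested in hearts and 84.0% of those tested in NRVCs. Of the single-gene and list values under alternatives, 56 became called, 25 were no longer called, 30 list counts moved, 0 changed direction as a called value, and the rest kept their direction and side of the threshold. Depth limits the members with too few counts to test, such as the mouse Cxcl11 and Ccl19 and the rat Ccl5.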
